A study of Mus musculus with 8 samples.

Results

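The genes described here are 10 genes of muscle membrane repair, chosen by name: Trim72, Dysf, Myof, Cav3, Anxa1, Anxa2, Anxa5, Anxa6, Ahnak and Ano5. Of these, 9 are among the 14578 genes with deposited values, as 35 of 33027 transcripts, and Ano5 was not analysed here. All 9 passed the filter on low values, so they are among the 13783 genes tested. RNA of the left ventricle was sequenced in 8 libraries from mice of 6 months on a C57 background. The 3 mdx sln+/- libraries came from mdx mice that also carry the heterozygous sln allele, the 3 mdx libraries from mice with the mdx mutation of Dmd, and the 2 WT libraries from wild-type controls. Dystrophin loss is therefore shared by both mutant groups, and there was no sln+/- group with intact dystrophin. Whether each library came from its own animal is not in the labels. The p-values therefore reflect only how far these libraries differ, and that spread may be technical.

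A tear in the sarcolemma, the plasma membrane of a muscle fibre or cardiomyocyte, lets in calcium and oxidants, and the cell closes it within moments by moving vesicles to the wound and fusing them with the membrane. Trim72 (also called MG53), a tripartite motif protein of striated muscle, gathers vesicles at the injury, and dysferlin, the calcium-binding ferlin encoded by Dysf, takes part in their fusion. Annexins bind phospholipids when calcium rises and form a cap over the wound, and caveolin-3 (Cav3) and the giant scaffold Ahnak sit at the same membrane. Cells without dystrophin have a fragile sarcolemma, and loss of dysferlin or of the anoctamin Ano5 itself causes muscular dystrophy in humans.

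Deposited values are log2 abundances. Linear abundances given here are those values turned back and summed over the transcripts of a gene, in the authors' units. Scaling by transcript length is not given in the sources used here. Levels are therefore compared between libraries, never between genes, and depth is unknown. Fold changes come from log2(value + 1), which understates change at low levels. A gene is called where its adjusted p in limma (Benjamini-Hochberg over all genes tested) is under 0.05. Dmd, which carries the mdx mutation, was at 16, 16.2 and 18 in the mdx sln+/- libraries and at 18.7, 19 and 17.7 in the mdx libraries, against 96.3 and 125 in the WT libraries. It was called lower in both, with log2 fold changes of -2.65 ± 0.12 SE in mdx sln+/- and -2.51 ± 0.12 SE in mdx against WT (adjusted p = 0.000177 and 0.000227 in limma). Sln was not analysed here, so the sln allele could not be checked. The 12 cardiomyocyte markers summed to 53400 to 56500 in mdx sln+/-, 52700 to 57200 in mdx and 50700 to 52900 in WT, and none was called in either comparison with WT. Single markers moved both ways. All mdx libraries were below WT for Tcap (log2 fold change -0.53), Pln (-0.44), Ryr2 (-0.38) and Myoz2 (-0.16). They were above WT for Tnnt2 (0.34), Myh6 (0.24) and Actn2 (0.18). Of all genes, 23.6% had the first pattern and 27.8% the second. The Y-linked gene Eif2s3y was lowest in mdx sln+/- 3, at 1.47, and WT 2, at 0.896. It was at 8.78 in mdx sln+/- 1, 15.1 in mdx 2 and 16.6 in mdx sln+/- 2, and at 54.2 to 68.2 in WT 1, mdx 1 and mdx 3. On the log2 scale mdx 2 and mdx sln+/- 2 average the same as the other mutant libraries in every transcript, as described under processing. Their own level of this gene is therefore unknown, and the libraries do not part into 2 clear sets. The same limit holds for the genes below. Values of mdx 2 and mdx sln+/- 2 are not independent of the other mutant libraries. Statements on every mutant library, and the SDs, include these 2 values. The mdx 1, mdx 2, mdx sln+/- 1 and mdx sln+/- 2 libraries carry a longer style of name than the other 4, called plainly named here, and what that marks is not given in the sources used here.

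Trim72 and Dysf are the genes whose sequence is shown first, because both were higher in mdx and because Dysf has alternative first exons. Sequences are those of GENCODE M21 transcripts on GRCm38 (mm10), plus strand for both genes, 5′ to 3′. The Trim72 stretch is coding sequence around a cysteine codon, within chr7:128007994-128009087. Capitals mark that codon, whose cysteine is known for linking oxidised Trim72 molecules through disulphide bonds.
Trim72: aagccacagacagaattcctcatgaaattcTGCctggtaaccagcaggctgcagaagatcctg
Of 15 Dysf transcripts, 12 start at a distal or a proximal first exon, 6 at each. The other 3, Dysf-207, Dysf-208 and Dysf-209, are not annotated as coding, start elsewhere and were left out of the sums by first exon. The pair below holds the first coding bases of Dysf-203, whose proximal first exon lies at chr6:84019386-84019608, and of Dysf-204, whose distal first exon lies at chr6:84008590-84009002. Capitals mark the coding bases of the first exon, 91 in Dysf-203 and 88 in Dysf-204, and the 30 lower-case bases after them are shared. Both exons encode the start of the first C2 domain, the calcium and phospholipid binding module at the amino end of dysferlin, so the 2 kinds of transcript encode different versions of it.
Dysf-203: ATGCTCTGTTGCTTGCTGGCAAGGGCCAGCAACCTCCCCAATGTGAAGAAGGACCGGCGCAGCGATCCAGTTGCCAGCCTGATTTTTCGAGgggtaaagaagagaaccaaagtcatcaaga
Dysf-204: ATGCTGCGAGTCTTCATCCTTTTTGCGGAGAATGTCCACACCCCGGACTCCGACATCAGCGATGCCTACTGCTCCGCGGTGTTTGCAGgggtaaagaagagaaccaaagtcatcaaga

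In mdx against WT, Trim72, Dysf and Anxa5 rose, and none of the 9 genes fell. Of all genes tested in this comparison, 15.1% were called, 8.15% higher and 6.94% lower (1123 and 957 genes). With median-ratio scaling the split was 1010 higher and 1094 lower. An unadjusted p under 0.05 was found for 4 of the 9 genes (Trim72, Dysf, Anxa5 and Anxa2) and for 32.5% of all genes. Groups did not overlap, with every mdx library above both WT libraries, for 5 of the 9 genes (Trim72, Dysf, Anxa5, Anxa2 and Cav3), while 27.8% of all genes had that pattern. None of the 9 had every mdx library below both WT libraries, against 23.6% of all genes. The median log2 fold change was 0.25 over the 9 genes and 0.02 over all genes tested. In whole-tissue RNA, fewer cells of a type and less RNA per cell cannot be told apart.

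Trim72 had 253, 271 and 243 in the mdx sln+/- libraries and 365, 284 and 265 in the mdx libraries, against 188 and 158 in the WT libraries. Every library without dystrophin was above both WT libraries, and mdx 1 was the highest. Means were 256 ± 14.4 in mdx sln+/-, 305 ± 53.2 in mdx and 173 ± 21.4 in WT (SD, n = 3, 3 and 2). The mdx mean corresponded to a fold change of 1.75 (log2 fold change 0.81 ± 0.15 SE, adjusted p = 0.0177 in limma), the largest among the 9 genes in this comparison. Trim72-202, with the 7-exon structure, held 98.9 to 99.6% of the gene's abundance in every library. The antisense gene Gm15533 overlaps Trim72 and stood at 0.986 to 1.84 in all libraries. Reads of the pair cannot be told apart unless strand was used in counting, which is not given in the sources used here.

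Dysf had 82.8, 90.3 and 90.2 in mdx sln+/-, and 117, 102 and 98.3 in mdx, against 82.2 and 69.6 in WT. The mdx libraries were above all 5 others. Means were 87.8 ± 4.27, 106 ± 9.84 and 75.9 ± 8.88 for mdx sln+/-, mdx and WT. In mdx against WT the fold change was 1.39 (log2 fold change 0.47 ± 0.11 SE, adjusted p = 0.0318 in limma). Myof encodes myoferlin, the ferlin closest to dysferlin, which acts in myoblast fusion and is also made by endothelial cells. Its values were 3.36, 3.63 and 4.09 in mdx sln+/- and 7.85, 6.19 and 4.43 in mdx, against 4.28 and 5.57 in WT. The mdx libraries spread widely and overlapped WT, and the log2 fold change of 0.25 ± 0.22 SE was not called (adjusted p = 0.469 in limma).

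**Figure D1:**
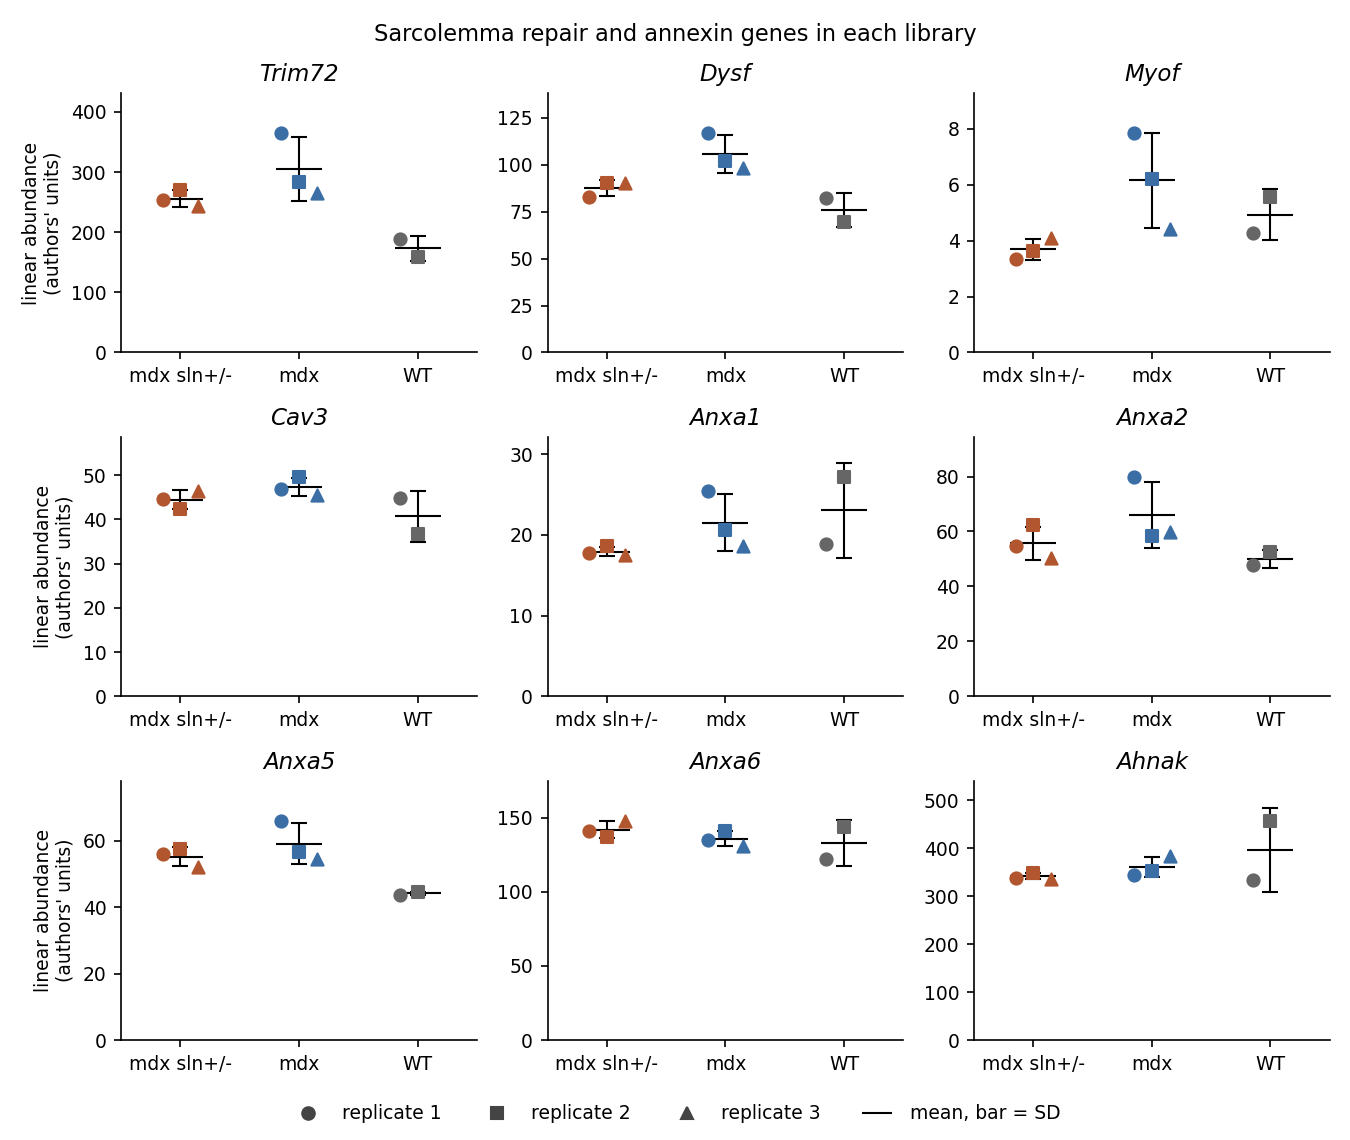
Linear abundance (vertical axis, in the authors' units, from 0) of the 9 genes in each library, with mdx sln+/- left, mdx in the middle and WT right. Symbols mark the replicate, horizontal lines the mean and bars the SD; every mdx library lies above both WT libraries for Trim72, Dysf, Cav3, Anxa2 and Anxa5, and mdx 1 reaches 365 for Trim72.

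The annexins divided by member. Anxa5, an abundant annexin that assembles into a lattice on torn membrane, had 56.1, 57.5 and 52.1 in mdx sln+/- and 66.1, 56.5 and 54.6 in mdx, against 43.8 and 44.5 in WT. All 6 libraries without dystrophin were above WT, whose 2 values lay close together. In mdx against WT its fold change was 1.33 (log2 fold change 0.41 ± 0.10 SE, adjusted p = 0.0366 in limma). Anxa2, which forms a complex with S100a10 and binds Ahnak, had 54.6, 62.3 and 50.4 in mdx sln+/- and 79.9, 58.3 and 59.9 in mdx, against 47.8 and 52.4 in WT. Its mdx libraries were above WT without overlap, with mdx 1 well above the rest, and the log2 fold change of 0.38 ± 0.16 SE did not pass (adjusted p = 0.15, unadjusted p = 0.048 in limma). Anxa1, known in leukocytes for its part in ending inflammation and at wounds for repair, had 17.7, 18.6 and 17.5 in mdx sln+/- and 25.4, 20.6 and 18.6 in mdx, against 18.9 and 27.2 in WT. The WT libraries were the most spread, and mdx lay between them or close to the lower one (log2 fold change -0.08 ± 0.18 SE, adjusted p = 0.784 in limma). Anxa6, the annexin with a doubled core that appears early in the repair cap, had 141, 137 and 148 in mdx sln+/- and 135, 141 and 131 in mdx, against 122 and 144 in WT. Its groups overlapped in all 3 comparisons, and the interval of the mdx difference, -0.18 to 0.25 on the log2 scale (95%), was the narrowest of the 9.

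Anxa6 is also made in 2 forms that differ by 18 bases, the exon at chr11:54987051-54987068 (GRCm38, minus strand). Both stretches are shown because this small exon is the only difference between their coding sequences, and capitals mark it in Anxa6-202.
Anxa6-202: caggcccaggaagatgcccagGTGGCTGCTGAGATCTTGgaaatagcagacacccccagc
Anxa6-201: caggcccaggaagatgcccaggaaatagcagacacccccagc
Anxa6-202 made up 48.0, 47.0 and 47.8% of the 2 forms in mdx sln+/- and 48.1, 47.9 and 45.9% in mdx, against 44.6 and 49.1% in WT. The WT pair spanned the 6 other values. Nearly all of the sequence is shared by the 2 forms, so these shares rest on how the authors' software divided shared reads.

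Cav3, the caveolin of muscle that shapes caveolae and binds dysferlin and Trim72, had 44.5, 42.4 and 46.5 in mdx sln+/- and 46.8, 49.6 and 45.6 in mdx, against 44.7 and 36.6 in WT. The mdx libraries were above WT by a narrow margin over WT 1, and the log2 fold change of 0.22 ± 0.10 SE was not called (adjusted p = 0.183 in limma). Ahnak had 339, 349 and 337 in mdx sln+/- and 345, 353 and 385 in mdx, against 335 and 458 in WT. WT 2 was the highest and WT 1 the lowest of all 8 libraries, so both mutant groups lay inside the WT range. Its log2 fold change was -0.12 ± 0.14 SE in mdx against WT (adjusted p = 0.581 in limma).

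A fit with a library left out also has fewer libraries, so number and choice of libraries cannot be told apart. Not all of the 3 calls held in such fits. Without WT 2 none of them held: the log2 fold change of Trim72 was then 0.68 (adjusted p = 0.0959), that of Dysf 0.36 (adjusted p = 0.147) and that of Anxa5 0.42 (adjusted p = 0.122). Without mdx 1, Trim72 kept its call at 0.61 (adjusted p = 0.0289), while Dysf was at 0.37 (adjusted p = 0.0872) and Anxa5 at 0.29 (adjusted p = 0.067). Anxa5 also lost its call without WT 1 (0.40, adjusted p = 0.104), on the r1 columns alone (0.36, adjusted p = 0.0633) and after median-ratio scaling (0.39, adjusted p = 0.0535). Leaving out mdx sln+/- 1 or mdx sln+/- 3 moved Dysf to an adjusted p of 0.0593 and 0.057 and Anxa5 to 0.084 and 0.0521. All 3 calls also ended with the style of the library name as a term (adjusted p of 0.0599 to 0.114), with only the 2 groups in the fit (0.0568 to 0.0947), with the plainly named libraries alone (0.153 to 0.346), and without the 2 libraries with little Eif2s3y (0.145 to 0.229). Each of the 3 log2 fold changes was above 0 in all 22 alternatives, at 0.61 to 0.94 for Trim72, 0.35 to 0.59 for Dysf and 0.29 to 0.48 for Anxa5. All of these p-values are from limma.

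Some markers of other cells were called in mdx against WT, where 8.15% of all genes tested were called higher and 6.94% lower. A few calls in a short list do not set that list apart. How the marker calls fare under other settings is not given here. Of 17 macrophage markers, 6 were called higher in mdx against WT and none lower. They summed to 379 to 449 in mdx sln+/- and 373 to 471 in mdx, against 292 to 297 in WT, with mdx 1 the highest library, as it was for Trim72, Dysf, Myof, Anxa2 and Anxa5. Among the macrophage markers not called, Cd163 (-0.80 ± 0.26 SE, adjusted p = 0.0786 in limma) and Mertk (-0.50 ± 0.23 SE, adjusted p = 0.169) went the other way in mdx against WT. Every library of both mutant groups was below both WT libraries for these 2, and Mrc1 was at 0.07 ± 0.14 SE. Aif1 was not analysed here. Of 12 fibroblast markers 2 were called higher, the collagens Col1a1 and Col3a1, and the list summed to 1920 to 2110 in mdx sln+/- and 1900 to 2020 in mdx, against 1470 to 2120 in WT. Of 9 smooth muscle and pericyte markers 2 were called higher, Cspg4 and Notch3, with sums of 652 to 814 in mdx sln+/- and 658 to 856 in mdx, against 597 to 605 in WT. The largest part was Rgs5, not called, at 431 to 514 in mdx sln+/-, 410 to 500 in mdx and 243 to 355 in WT. Acta2 (-0.48 ± 0.38 SE), Tagln (-0.28 ± 0.47 SE) and Cnn1 (-0.27 ± 0.24 SE) went the other way in mdx against WT, not called. Myh11 was at 0.03 ± 0.46 SE, and Pdgfrb and Kcnj8 were both at 0.28, none called. Of 12 endothelial markers 2 were called higher and 1 lower, and they summed to 1330 to 1460 in mdx sln+/- and 1280 to 1430 in mdx, against 1220 to 1430 in WT. In mdx sln+/- against WT, 6 of the 17 macrophage markers were again called higher, as were 9.41% of all genes tested. Of 3 atrial markers tested 2 were called higher in mdx against WT, Nppa (1.12 ± 0.27 SE, adjusted p = 0.0361 in limma) and Gja5 (0.45 ± 0.09 SE, adjusted p = 0.0241). The third, Stard10, went the other way and was not called (-0.83 ± 0.23 SE, adjusted p = 0.0532 in limma). Every mdx and mdx sln+/- library was below both WT libraries for it. The list summed to 494 to 675 in mdx sln+/- and 515 to 704 in mdx, against 241 to 389 in WT. Most of that sum was Nppa, at 471 to 656 in mdx sln+/-, 495 to 689 in mdx and 216 to 367 in WT. Myl7, Myl4 and Bmp10, also of that list, were not analysed here. The only lymphocyte marker tested, Ighm, was called higher (0.70 ± 0.19 SE, adjusted p = 0.0471) and the only adipocyte marker tested, Plin4, lower (-1.18 ± 0.24 SE, adjusted p = 0.0212). The skeletal muscle markers Myh1, Myh2, Myh4, Tnnt3 and Actn3 were not analysed here. The part of these cells in the values of the 9 genes, several of which many cell types make, was not tested.

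The comparison of mdx sln+/- with WT shares its WT libraries with the one above, so the 2 are not independent. Here Trim72 alone among the 9 genes was called, with a fold change of 1.48 (log2 fold change 0.57 ± 0.15 SE, adjusted p = 0.0474 in limma). Of all genes tested, 15.9% were called, 9.41% higher and 6.5% lower. An unadjusted p under 0.05 was found for 2 of the 9 genes (Trim72 and Anxa5) and for 33.7% of all genes. With median-ratio scaling the split of all calls was 931 higher and 1137 lower, where the deposited scale gave 1297 higher and 896 lower. Trim72 was then at 0.51 with an adjusted p of 0.0733. Anxa5 was above WT without overlap at a fold change of 1.25 (log2 fold change 0.32 ± 0.10 SE) and an adjusted p of 0.0718 in limma. It was called in 3 of 22 alternatives, with the groups alone as terms (adjusted p = 0.0285), without mdx 1 (0.0307) and with the replicate number in place of the removed term (0.0325). Dysf was at 0.21 ± 0.11 SE on the log2 scale (adjusted p = 0.221 in limma), and its lowest mdx sln+/- library, at 82.8, stood just above the higher WT library. Across the 9 genes, 3 had every mdx sln+/- library above WT (Trim72, Dysf and Anxa5; 36.4% of all genes) and 2 had every one below (Myof and Anxa1; 23.5% of all genes). Myof was at -0.33 ± 0.22 SE and Anxa1 at -0.32 ± 0.18 SE on the log2 scale, neither called (adjusted p = 0.319 and 0.248 in limma). The remaining log2 fold changes, of Cav3, Anxa2, Anxa6 and Ahnak, lay between -0.20 and 0.15.

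The Trim72 call in mdx sln+/- was close to the threshold and ended in 12 of 22 alternatives. Among single libraries it ended without WT 1 (log2 fold change 0.69, adjusted p = 0.0637 in limma), WT 2 (0.44, adjusted p = 0.209), mdx sln+/- 1 (0.58, adjusted p = 0.154), mdx sln+/- 2 (0.52, adjusted p = 0.0826), mdx sln+/- 3 (0.62, adjusted p = 0.106) and mdx 2 (0.52, adjusted p = 0.083). Ahnak was called lower only without WT 1, at a log2 fold change of -0.42 (adjusted p = 0.0425 in limma).

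In mdx sln+/- against mdx, 0 of 13783 genes were called in limma (0.0%), and 1186 (8.6%) had an unadjusted p under 0.05. Of the 9 genes, 8 had a log2 fold change below 0, with a median of -0.23 against 0.03 over all genes, and 2 (Dysf and Myof) had an unadjusted p under 0.05. Both had every mdx sln+/- library below every mdx library, as did 8.0% of all genes; the opposite pattern was seen in none of the 9 and in 16.8% of all genes. The Dysf difference was -0.26 ± 0.09 SE on the log2 scale (95% interval -0.48 to -0.04, unadjusted p = 0.0267, adjusted p = 0.578 in limma). For Myof it was -0.58 ± 0.19 SE (95% interval -1.02 to -0.15, unadjusted p = 0.0157, adjusted p = 0.578 in limma). Neither passed, and no difference from mdx was established for any member. The intervals still allowed a sizeable fall for several: Trim72 reached down to -0.55, Anxa2 to -0.55 and Anxa1 to -0.60, each with an upper end above 0.

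**Figure D2:**
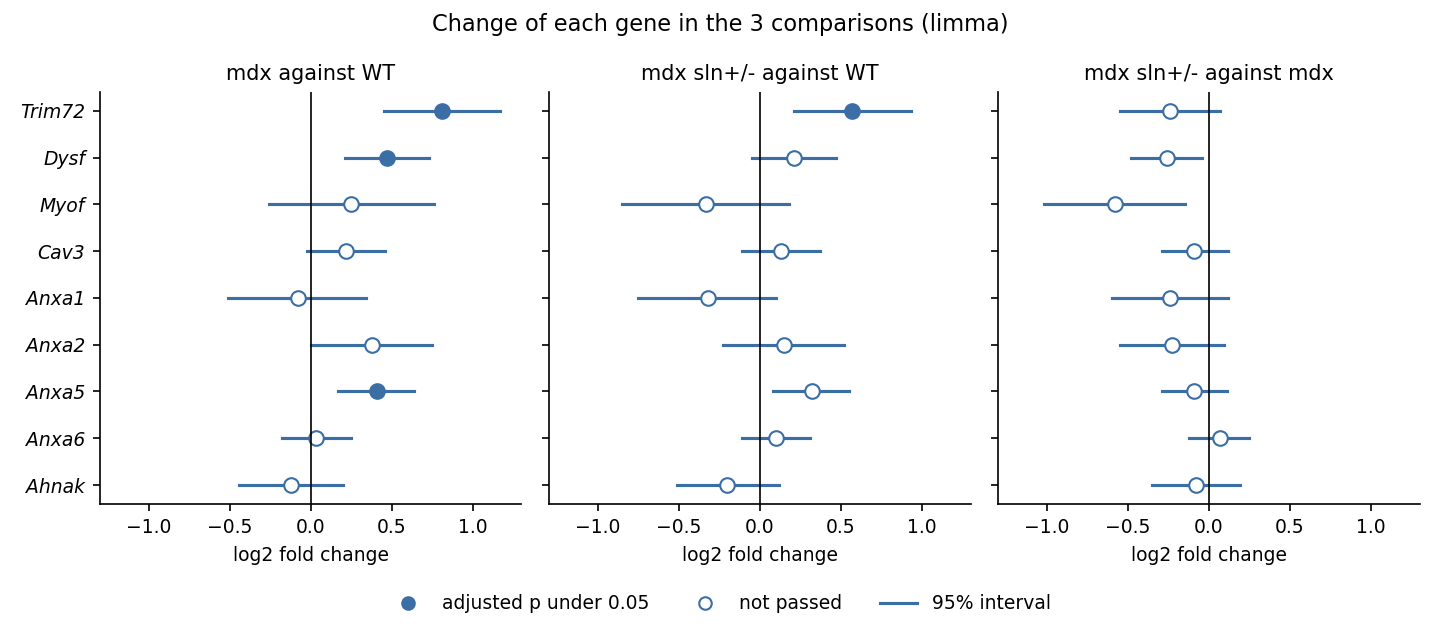
Log2 fold change (horizontal axis) of the 9 genes in each of the 3 comparisons, with 95% intervals from limma; filled points have an adjusted p under 0.05. Filled are Trim72, Dysf and Anxa5 in mdx against WT and Trim72 in mdx sln+/- against WT, none is filled in mdx sln+/- against mdx, and only the Dysf and Myof intervals lie wholly below 0 there.

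At the level of transcripts, 7 of the 35 rose in mdx against WT and none fell (3.62% of 33027 transcripts were called higher, 7.25% in either direction). Every mdx library was above both WT libraries for 14 of the 35 (22.6% of all transcripts) and below both for 3 (21.5%). The 7 that rose were Dysf-201, Dysf-202, Dysf-203, Dysf-211, Dysf-212, Trim72-202 and Anxa5-202. Dysf-203 had 9.28, 10.7 and 10.2 in mdx sln+/- and 11.8, 11 and 12.2 in mdx, against 7.34 and 5.57 in WT, a log2 fold change of 0.77 ± 0.14 SE in mdx against WT (adjusted p = 0.0223 in limma). Its groups did not overlap, with mdx highest and WT lowest. Dysf-204, the distal transcript shown above, had 14, 14.3 and 15.9 in mdx sln+/- and 21.1, 15.6 and 10.6 in mdx, against 14 and 13.4 in WT. The mdx libraries lay on both sides of WT (log2 fold change 0.14 ± 0.25 SE, adjusted p = 0.76 in limma). Called higher in mdx sln+/- against WT were 3 transcripts, Dysf-202, Dysf-203 and Anxa5-202 (4.6% of all transcripts were called higher, 8.86% in either direction). Every mdx sln+/- library was above both WT libraries for 9 of the 35 (29.3% of all transcripts) and below both for 7 (24.3%). No transcript was called in mdx sln+/- against mdx (0.0%), and every mdx sln+/- library was below every mdx library for 11 of the 35 (10.8% of all transcripts) and above for 1 (14.4%). Dysf gave 15 of the 35 transcripts and 5 of the 7 called higher in mdx against WT. Most of the 14 above WT in mdx, and of these 11, were also Dysf transcripts. Transcripts of 1 gene share reads, so these counts do not stand for separate genes.

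Of the 6 Dysf transcripts with the proximal first exon, 4 were called higher in mdx against WT, and of the 6 with the distal first exon 1 was, Dysf-211. Summed, the proximal transcripts had 33.2, 36.7 and 35.0 in mdx sln+/- and 44.6, 40.6 and 42.8 in mdx, against 26.9 and 23.9 in WT. The 3 groups did not overlap. The distal transcripts summed to 47.5, 51.2 and 53.0 in mdx sln+/- and 69.7, 58.7 and 52.6 in mdx, against 52.6 and 43.6 in WT. There, mdx 3 and WT 1 were level, and mdx sln+/- overlapped WT. The proximal share of both was 41.1, 41.8 and 39.8% in mdx sln+/- and 39.0, 40.9 and 44.8% in mdx, against 33.8 and 35.4% in WT, so all 6 libraries without dystrophin were above WT. The grouping by first exon was made after transcript values had been seen, so the sums and shares are described without a test. The transcripts share most of their sequence and differ in a few exons, so their values rest on how the authors' software divided shared reads.

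**Figure D3:**
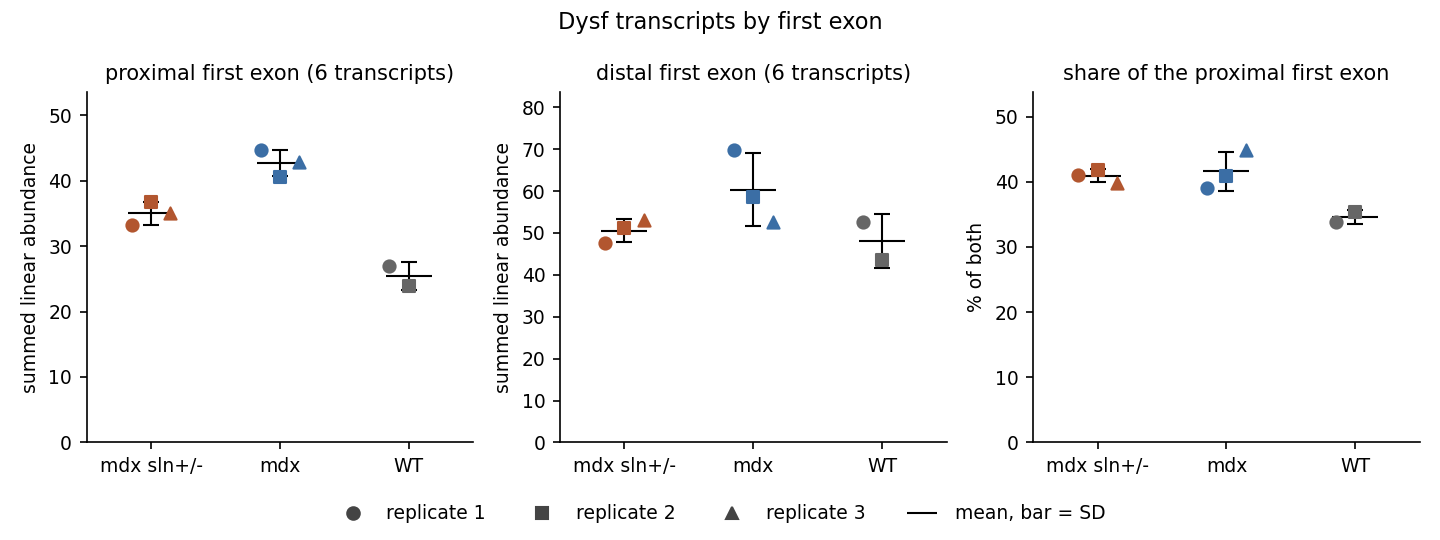
Summed linear abundance of Dysf transcripts with the proximal (left) and the distal first exon (middle), and the proximal share in % (right), for mdx sln+/-, mdx and WT; symbols are libraries, lines means and bars SD. The proximal sums of the groups do not overlap, at 33.2 to 36.7 in mdx sln+/-, 40.6 to 44.6 in mdx and 23.9 to 26.9 in WT. The distal sums of mdx sln+/- overlap those of WT, and mdx 3 is level with WT 1.

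Anxa5-202, a 4-exon transcript that retains an intron and is not annotated as coding, had 9.90, 10.8 and 9.16 in mdx sln+/- and 12.5, 9.53 and 9.27 in mdx, against 6.12 and 6.20 in WT. Its log2 fold change was 0.66 ± 0.15 SE in mdx against WT (adjusted p = 0.0424 in limma). The coding transcript Anxa5-201 had 43.5, 43.9 and 40.3 in mdx sln+/- and 49.9, 44.5 and 43.4 in mdx, against 34.7 and 36.5 in WT. All 6 libraries without dystrophin were above WT, and mdx sln+/- overlapped mdx. In mdx against WT its log2 fold change was 0.36 ± 0.10 SE, which did not pass (adjusted p = 0.0675 in limma). Transcript calls, too, did not all hold with single columns or with a library left out. With one deposited column per library in place of the mean of both, 6 of the 7 calls in mdx against WT ended on the r1 columns, with Trim72-202 kept, and 5 ended on the r2 columns, with Dysf-201 and Anxa5-202 kept. All 7 ended without WT 2 (adjusted p of 0.0829 to 0.133 in limma) and without mdx sln+/- 1 (0.0542 to 0.123). All 7 ended as well with name style as a term (0.0739 to 0.174), with only the 2 groups in the fit (0.0708 to 0.166), with the plainly named libraries alone (0.27 to 0.493) and without WT 2 and mdx sln+/- 3 together (0.161 to 0.229). Without mdx 1 or without mdx 3, 6 ended and Trim72-202 held. Without mdx sln+/- 3, 4 ended, and without WT 1 the calls of Dysf-212 and Anxa5-202 did, as did that of Dysf-212 without mdx 2 or mdx sln+/- 2. All 3 calls in mdx sln+/- against WT ended without WT 2, mdx 2 or any 1 of the mdx sln+/- libraries (adjusted p of 0.076 to 0.192 in limma). Without mdx 1 or mdx 3 those of Dysf-202 and Dysf-203 ended, and without WT 1 that of Anxa5-202. All 3 also ended with name style as a term (0.108 to 0.156), with the plainly named libraries alone (0.361 to 0.442) and without WT 2 and mdx sln+/- 3 together (0.238 to 0.366).

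Other genes of the repair machinery were taken from 9 lists. Of all genes tested, 8.15% were called higher and 6.94% lower in mdx against WT, and 9.41% and 6.5% in mdx sln+/- against WT. A single call in a list therefore does not set that list apart. Caveolar genes other than Cav3 held 3 of 13 called higher in mdx against WT and none lower, with a median log2 fold change of 0.27 over the list. Cavin1, the coat protein without which caveolae do not form, had 200, 218 and 187 in mdx sln+/- and 235, 205 and 227 in mdx, against 156 and 136 in WT. All libraries without dystrophin were above WT (log2 fold change 0.60 ± 0.11 SE, adjusted p = 0.0149 in limma). Ehd4, a membrane-remodelling ATPase, was higher by 0.29 ± 0.08 SE (adjusted p = 0.0431), and so was Pacsin3, a membrane-bending protein named after its value was seen, by 0.64 ± 0.17 SE (adjusted p = 0.0453). Among 4 ferlin and synaptotagmin genes, Esyt1, which tethers the endoplasmic reticulum to the plasma membrane, was called higher at 0.52 ± 0.10 SE (adjusted p = 0.0189). Its values were 27.3, 28 and 26.4 in mdx sln+/- and 35, 30 and 28.8 in mdx, against 22.2 and 20.8 in WT, and the 3 groups did not overlap.

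None of the 5 other annexins and none of the 7 S100 genes, partners of annexins and Ahnak, was called in mdx against WT. S100a10, the partner of Anxa2, had a log2 fold change of 0.32 ± 0.23 SE (adjusted p = 0.383 in limma), with overlapping groups. Of 7 calpain genes, which encode calcium-activated proteases and their inhibitor, Capn1 was called higher (0.37 ± 0.09 SE, adjusted p = 0.037 in limma). Of 14 genes of the ESCRT machinery, which pinches off damaged membrane, Chmp6 was called higher (0.36 ± 0.09 SE, adjusted p = 0.0394), and the list's median was 0.01.

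Of 5 anoctamins tested, Ano10 fell in both comparisons with WT and none rose. This relative of Ano5 had 31.9, 29.4 and 31.3 in mdx sln+/- and 21.7, 24.3 and 24.7 in mdx, against 39.7 and 41.9 in WT. The groups were ordered without overlap, with mdx lowest. Its log2 fold change was -0.76 ± 0.09 SE in mdx against WT (adjusted p = 0.00476 in limma) and -0.38 ± 0.09 SE in mdx sln+/- against WT (adjusted p = 0.0291). The value in mdx sln+/- against mdx was 0.38 ± 0.07 SE, which was not called (adjusted p = 0.578). With the most abundant transcript in place of the sum, Ano10 was at -0.72 in mdx sln+/- against WT and at -1.37 in mdx against WT. Of 11 genes of exocytosis and lysosomes, 2 fell in mdx against WT and none rose. Vamp2, a vesicle SNARE protein, had 47.1, 43.4 and 47.5 in mdx sln+/- and 44, 47.5 and 43.3 in mdx, against 60.6 and 58.7 in WT (log2 fold change -0.40 ± 0.08 SE, adjusted p = 0.019). Rab27a, a small GTPase that docks secretory vesicles, was at -0.74 ± 0.17 SE (adjusted p = 0.0311), and at -0.93 with a pseudocount of 0.1.

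Of 9 T-tubule and tripartite motif genes, Ahnak2, a paralogue of Ahnak, and Dnm2, a membrane-cutting GTPase named after its value was seen, rose in mdx against WT, and Mtm1, the phosphatase myotubularin, fell. Ahnak2 had 4.88, 5.56 and 5.56 in mdx sln+/- and 6.29, 5.54 and 5.55 in mdx, against 2.47 and 3.53 in WT. Both mutant groups were above WT, with a log2 fold change of 0.78 ± 0.14 SE in mdx against WT (adjusted p = 0.0167 in limma) where Ahnak itself was at -0.12. Dnm2 was at 0.29 ± 0.08 SE (adjusted p = 0.0487) and Mtm1 at -0.61 ± 0.17 SE (adjusted p = 0.0484). In mdx sln+/- against WT, Cavin1, Ehd4, Capn1, Chmp6 and Ahnak2 were called higher and Ano10, Vamp2 and Rab27a lower. Also called there, and named after their values were seen, were S100a13 (0.48 ± 0.12 SE, adjusted p = 0.0356), the lysosomal protease Ctsb (0.30 ± 0.07 SE, adjusted p = 0.038) and, lower, Anxa4 (-0.31 ± 0.08 SE, adjusted p = 0.038). Esyt1 and Mtm1 were not (adjusted p = 0.0656 and 0.0871).

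**Figure D4:**
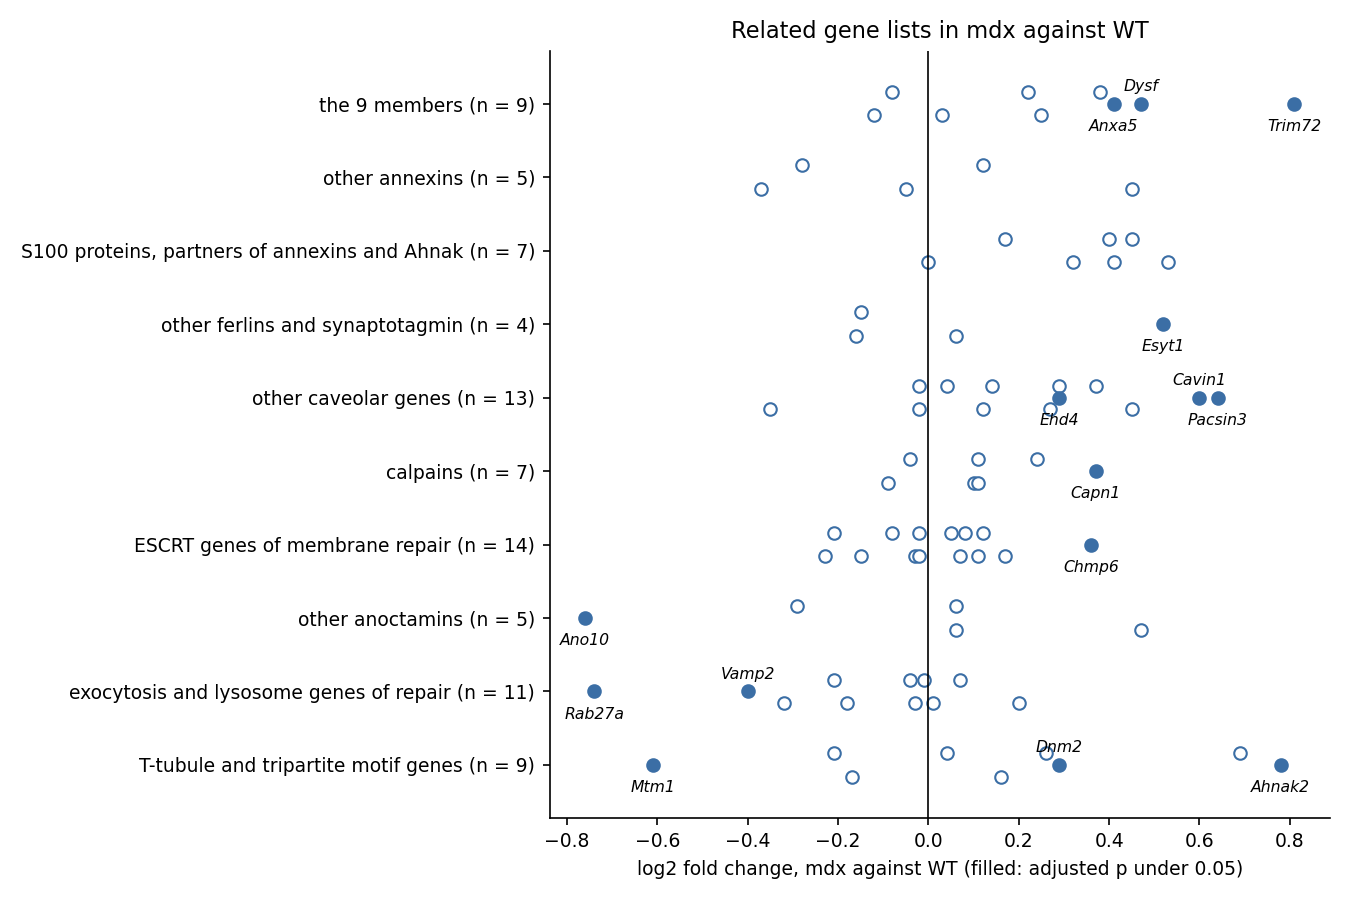
Log2 fold change in mdx against WT (horizontal axis) of the 9 genes and of the tested genes of 9 related lists (rows, with their number); filled points have an adjusted p under 0.05 in limma and carry the gene's name. Trim72 at 0.81 is the rightmost point and Ano10 at -0.76 the leftmost.

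Calls in the related lists, too, did not all hold when a library was left out. Of the 10 genes of the lists that the naming rule gave in mdx against WT, 8 lost their call without WT 2 (adjusted p of 0.0689 to 0.179 in limma), with Ano10 and Ahnak2 kept, and Mtm1 was then at -0.36. Without mdx 1, 8 lost it (0.0508 to 0.151), with Esyt1 and Ano10 kept. The numbers lost were 3 without WT 1, 4 without mdx 2, 5 without mdx 3, 6 without mdx sln+/- 1, 4 without mdx sln+/- 2 and 4 without mdx sln+/- 3. Cavin1 was lost in none of these 6 and neither was Ano10. All 10, Ano10 and Ahnak2 included, lost their call without WT 2 and mdx sln+/- 3 together (0.0648 to 0.291) and with the plainly named libraries alone (0.0967 to 0.473), and 8 lost it with name style as a term or with only the 2 groups in the fit. All 8 such calls in mdx sln+/- against WT ended without mdx sln+/- 1 (0.0634 to 0.179) and without mdx sln+/- 3 (0.0637 to 0.146). There, 7 ended without WT 2, with Ahnak2 kept, and 4 each without WT 1, mdx 2 or mdx sln+/- 2, while none did without mdx 1 or mdx 3. All 8 also ended without WT 2 and mdx sln+/- 3 together (0.114 to 0.38) and with the plainly named libraries alone (0.114 to 0.345), 7 with name style as a term and 5 with only the 2 groups in the fit.

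For each gene called in mdx against WT, the genes with the closest profile over the 8 libraries were found among 11540 genes, by the Euclidean distance between log2 profiles centred on their own mean. Trim72 was closest to Rassf5, a Ras effector (distance 0.124), and to Actb, cytoplasmic beta-actin (0.152), where the median over all genes was 1.02. Actb had 178, 198 and 184 in mdx sln+/- and 282, 210 and 190 in mdx, against 127 and 114 in WT, the same order of groups as Trim72, also with mdx 1 highest. Dysf was closest to the arginine methyltransferase Prmt1 (0.146) and the LIM protein Pdlim1 (0.161, median 0.699). Anxa5 was closest to Tax1bp3, a PDZ protein (0.0989), and Ppp1r9b, an actin-binding scaffold (0.107, median 0.625). These distances describe 8 libraries that share the group differences.

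On GRCm38, per GENCODE M21, Trim72 spans chr7:128003949-128011033 on the plus strand, Dysf chr6:84008590-84211060 on the plus strand and Anxa5 chr3:36448923-36475894 on the minus strand. Anxa2 lies at chr9:69453620-69491795, Cav3 at chr6:112459505-112472872 and Ahnak at chr19:8989284-9076914, all on the plus strand. Anxa1 at chr19:20373428-20390944, Myof at chr19:37899036-38043577 and Anxa6 at chr11:54979108-55033445 are on the minus strand. Antisense genes also overlap Dysf and Anxa2 and were not analysed here. No transcript of another annotated gene matched the main transcript of any of the 9 at 90% identity or more over at least 80% of its length.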

How the data were processed

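Left ventricular RNA of 8 libraries (mdx sln+/-, 3; mdx, 3; WT, 2) was sequenced. The aligner was STAR 2.6.1 with the mm10 build, Partek was the platform and limma the test, per the submitters' processing notes. The authors deposited log2 values for 33027 transcripts in 16 columns, a pair named r1 and r2 for each library, per the file headers. The sources used here do not explain the pair. Its columns correlated at 0.981 to 0.987 and were averaged to 1 replicate, and all were mapped to a library (0 unmapped). That the values are log2(abundance + 1) was inferred from their range. Abundances of a library summed to 780262 to 924253. No counts were used, so depth and its precision are unknown.

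Values were turned back to linear abundances, summed per gene and tested as log2(value + 1) in limma 3.58.1 (R 4.3.3), with a trended empirical Bayes prior, all 8 libraries in 1 fit and Benjamini-Hochberg adjustment at 0.05. The filter asked for 2 libraries with a value of 1 or more; 13783 genes met it and 795 did not. For each transcript, mdx 2 and mdx sln+/- 2 averaged the same as the other 4 mutant libraries (largest difference 5.12e-05), the pattern that removal of a model term leaves. That term was fitted, leaving 4 residual degrees of freedom. When mdx 2, mdx sln+/- 2 or one of these groups is left out, the term takes up the remaining library of the pair, which then drops out of the fit. Transcripts were fitted the same way on the deposited log2 values, but without the filter on low values. Shares of transcripts called are therefore over all 33027 and are not on the same basis as those of genes.

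The members, lists and tests were chosen with earlier results of these data known. Named genes are the members, Dmd, for each list the 2 called genes with the smallest adjusted p in mdx against WT, and for each called member the 2 genes with the closest profile. Alternatives were another scaling, pseudocount, filter, gene summary, single columns, other terms and fewer libraries; the fits of transcripts under these were added after seeing the data. The fits were tested first on simulated data with 200 changed genes per comparison. With the removed term fitted, false calls numbered 19 of 174 in mdx against WT. They numbered 8 of 168 in mdx sln+/- against WT and 5 of 174 in mdx sln+/- against mdx. Of 67 changes of 0.5 on the log2 scale, 30, 32 and 40 were recovered in these comparisons in turn. Python 3.11.15, numpy 2.4.6, pandas 2.3.3 and matplotlib 3.10.9 were used for tables and figures.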

Additional observations from a re-analysis of the deposited data

How the results depend on the processing

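The counts of genes called moved with the libraries and terms in the fit. In mdx against WT, where 2080 genes were called, the count was 3798 with the groups alone, 559 with name style as a term, 545 with only the 2 groups compared, 122 with the plainly named libraries only and 126 without the pair that had little Eif2s3y (WT 2 and mdx sln+/- 3). It was 579 (without WT 2) to 1819 (without mdx sln+/- 2) when 1 library was left out. The 2193 calls of mdx sln+/- against WT became 3996, 711, 2015, 333 and 39 under the same settings in turn, and leaving out 1 library gave 316 (without mdx sln+/- 1) to 2410 (without mdx 1). The count was 0 throughout in mdx sln+/- against mdx. The cause was not tested. Fits with fewer libraries also differ in which library or term is left out, so number and choice of libraries cannot be told apart.

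Members not called turned in sign under some settings. In mdx against WT, leaving out 1 library gave Anxa1 -0.33 to 0.17, Anxa6 -0.08 to 0.15 and Ahnak -0.34 to 0.11, all at an extreme without WT 1 or WT 2, and Anxa1 was at 0.05 without mdx 3. Against WT, mdx sln+/- had Cav3 at -0.01 to 0.27, Anxa6 -0.02 to 0.22 and Ahnak -0.42 to 0.03, and in mdx sln+/- against mdx Anxa5 -0.15 to 0.00. Without WT 2 and mdx sln+/- 3, Anxa1 was at 0.17 and Ahnak at 0.11 in mdx against WT, and Cav3 at -0.05 and Ahnak at 0.04 in mdx sln+/- against WT. With the plainly named libraries only, Myof was at -0.12 and Anxa6 at -0.01 in mdx against WT, and Cav3 at 0.03 in mdx sln+/- against mdx. The cause was not tested.

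Deviations from group means correlated at -0.311 to 0.18 between libraries of the same replicate number, leaving aside mdx 2 with mdx sln+/- 2. Of 8 libraries, 1 correlated best with its own number. The correlation of mdx 2 with mdx sln+/- 2, at -0.996, was set by the removed term. An effect shared by these 2 libraries would have gone with that term. Whether replicate numbers pair the libraries therefore cannot be decided from values that lack that term. With the replicate block in place of that term, 2397 genes were called in mdx against WT, 2363 in mdx sln+/- against WT and 0 in mdx sln+/- against mdx. Anxa5 was then called in mdx sln+/- against WT (0.36, adjusted p = 0.0325 in limma), and all 4 member calls held, while of the transcripts Dysf-202 (adjusted p = 0.0595) and Dysf-203 (0.0541) lost theirs.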

Other observations

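Transcripts of members that were not called held some patterns of their own, none of which passed in limma. The short 6-exon Ahnak-201 had 3.38, 3.30 and 3.44 in mdx sln+/- and 2.5, 2.51 and 2.34 in mdx, against 2.77 and 3.85 in WT. Its mdx libraries were below all others, with log2 fold changes of -0.31 ± 0.15 SE in mdx against WT (adjusted p = 0.254) and 0.34 ± 0.13 SE in mdx sln+/- against mdx (adjusted p = 0.518), while Ahnak-202, which holds the large exon, was at -0.12 and -0.08. Myof-211, the longer Myof transcript, had 2.36, 2.25 and 2.87 in mdx sln+/- and 5.01, 4.80 and 3.55 in mdx, against 2.20 and 3.68 in WT. Every mdx sln+/- library was below every mdx library (-0.63 ± 0.19 SE, adjusted p = 0.449). The non-coding Anxa1-203 had 1.56, 1.67 and 1.81 in mdx sln+/- and 1.98, 1.83 and 1.67 in mdx, against 1.33 and 1.41 in WT, so it was above WT in both mutant groups where the coding Anxa1-201 was not.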
